A study of Mus musculus with 9 samples.

Results

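The clustered histone genes were followed in single cells of the testis of mice that lacked NELF-B or TDP-43 in germ cells. The members were all genes whose symbol begins with Hist1h, Hist2h, Hist3h or Hist4h, which gave 67 of the 32285 annotated genes. Of these, 54 lie on chromosome 13 (the Hist1 cluster), 10 on chromosome 3 (Hist2), 2 on chromosome 11 (Hist3) and 1 on chromosome 6 (Hist4h4). Whole testes of 9 mice at postnatal day 24 were dissociated and sequenced by 10x Chromium 3′ single-cell RNA-seq, with 1 library for each mouse. Control animals numbered 4, NELF-B cKO animals 2 and TDP-43 cKO animals 3. A NELF-B cKO mouse carries 1 floxed and 1 null allele of Nelfb, a TDP-43 cKO mouse 1 floxed and 1 null allele of Tardbp, and both carry the Stra8-iCre transgene, which drives recombination in spermatogonia (SG). The labels give the strain as C57BL/6, and the study backcrossed its mice to C57BL/6 J. Control mice were littermates or non-littermates of the same age. The study calls them wild type, while the deposited name of control replicate 2 holds the word het, and no source used here lists their alleles. A unique molecular identifier (UMI) counts 1 captured RNA molecule. UMIs were summed for each mouse and cell type, and levels are given as counts per 1000000 UMIs of that sum (CPM). Of the 67 members, 63 had at least 50 UMIs in the named cells of control mice, and Hist1h2bq had 0.

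Replication-dependent histone genes supply the H1, H2A, H2B, H3 and H4 proteins that package newly made DNA, and they are transcribed mainly in S phase. Most of their mRNAs end just after a conserved stem-loop, which is bound by SLBP and cut by the U7 snRNP machinery, and so carry no poly(A) tail. A 3′ library primed on poly(A) therefore counts only the polyadenylated forms, and its levels are not total histone mRNA. In male germ cells some clustered genes are also made outside S phase. Hist1h1t encodes the testis linker histone H1t, Hist1h2ba the testis H2B variant TH2B and Hist1h2aa the testis H2A variant TH2A. NELF is the complex that holds RNA polymerase II in its promoter-proximal pause, and with the cap-binding complex it is known to take part in histone mRNA 3′ end formation. TDP-43 is an RNA- and DNA-binding protein.

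The stem-loop is printed below for members that carry the results described later, with 5 flanking bases and the 16-base stem-loop in capitals, because it is the element beside which these mRNAs are normally cut. The annotated transcript of Hist1h2ap ends 3 bases after its stem-loop, so only those are printed there. Sequences are from the annotated transcripts of GENCODE M21 (GRCm38), and positions are those of the 16 capitals. The deposited counts were made with another annotation of the same build, whose 3′ ends may differ from those described here.
Hist1h1c, chr13:23739512-23739527, plus strand: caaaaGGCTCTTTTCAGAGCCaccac
Hist1h1e, chr13:23621782-23621797, minus strand: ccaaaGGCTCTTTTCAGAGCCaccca
Hist1h1t, chr13:23696525-23696540, plus strand: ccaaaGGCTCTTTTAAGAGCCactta
Hist1h2bp, chr13:21787923-21787938, plus strand: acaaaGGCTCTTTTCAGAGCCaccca
Hist1h2ap, chr13:21833029-21833044, minus strand: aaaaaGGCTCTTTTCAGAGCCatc
Hist1h3a, chr13:23761890-23761905, minus strand: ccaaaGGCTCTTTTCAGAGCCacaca
Hist1h4a, chr13:23760800-23760815, minus strand: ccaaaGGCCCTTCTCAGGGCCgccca
Hist1h4c, chr13:23698089-23698104, minus strand: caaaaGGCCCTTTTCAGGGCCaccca
Hist1h4d, chr13:23581950-23581965, plus strand: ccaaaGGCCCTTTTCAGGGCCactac
Hist1h4i, chr13:22040966-22040981, minus strand: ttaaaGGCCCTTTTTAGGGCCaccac
Hist2h2ac, chr3:96220418-96220433, minus strand: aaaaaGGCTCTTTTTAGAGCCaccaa
Hist3h2a, chr11:58955172-58955187, plus strand: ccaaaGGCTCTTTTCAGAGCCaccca

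A stem-loop was found in an annotated transcript of 46 of the 67 members, and 47 of 141692 transcripts of other genes (0.0332%) hold one. The form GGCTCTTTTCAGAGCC was the most frequent, in 26 members, followed by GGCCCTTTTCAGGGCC in 7 and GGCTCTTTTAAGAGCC in 6. In 24 members the annotated transcript that holds the stem-loop ends within 110 bases of it, such as Hist1h2ap (3 bases), Hist1h3a (37), Hist1h2bp (38), Hist2h2ac (57) and Hist1h4a (108). In 22 members it runs on further, such as Hist1h1t (185 bases), Hist1h4i (330), Hist1h4c (454), Hist1h4d (770), Hist1h1c (840), Hist1h1e (1153) and Hist3h2a (1643). The boundary of 110 bases was set after the lengths were seen. Hist1h2bp also has an annotated transcript without the stem-loop, spliced past it, which ends 1275 bases downstream in the genome. No stem-loop was found in the annotated transcripts of the other 21 members, among them Hist1h1a, Hist1h2aa, Hist1h2ba and Hist1h2bc. Where one was found, it lay 21 to 58 bases past the stop codon. Several annotations without one are short, such as those of Hist1h2aa (390 bases) and Hist1h2ba (384), and may stop before it. These members are therefore not shown to lack the stem-loop. A poly(A) signal (AATAAA or ATTAAA) lay in the last 50 bases of 11 members with long ends, 3 with short ends (for Hist1h2bp on the transcript without the stem-loop) and 2 with no stem-loop. All 3 kinds were detected, with 34.7%, 29.9% and 35.4% of the member UMIs of control cells in that order. Copies of these genes are close to each other: 49 members share at least 1 stretch of 90 bases (the read length) in their last 500 bases with another gene, and 29 share over 50% of them, so the split of reads between such copies is uncertain. Of Hist1h1e, 99.0% of this window is shared with 2 overlapping genes of the same strand, Gm11398 and the member Hist1h2be, and of Hist1h2ap 92.4% with other copies.

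Libraries held 119203347 to 159407373 UMIs, and 45132 barcodes passed the filters. Clustering gave 30 clusters, of which 21 were named from marker genes and held 27041 cells. The clustering left out 66 of the members. Libraries shared at most 0.355% of the barcodes of the smaller one, and free RNA made up an estimated 5.36% to 15.7% of cell UMIs. Nelfb, in SG and early spermatocytes (SC) together, stood at 62.8 to 75.4 CPM in control mice and at 4.25 and 5.01 in NELF-B cKO mice, before cells with a UMI of the target were removed. Tardbp stood at 93.6 to 131 CPM in controls and at 34.2, 45.9 and 49.5 in TDP-43 cKO mice. Nelfb was also lower in Sertoli cells of NELF-B cKO mice (5.61 and 10.5 CPM against 22.2 to 29.3). NELF-B cKO replicate 1 stood apart from the other cKO mice. Its barcodes past the filter had a median of 5165 UMIs, against 1754 to 6369 in controls and 14117 to 19254 in the other cKO mice. Its SG fell mainly in the cluster that held the SG of control mice (979 cells), whereas the SG of NELF-B cKO replicate 2 and of the TDP-43 cKO mice fell mainly in clusters with few or no control cells. The main NELF-B cKO results are therefore given with and without replicate 1. For the other cKO mice, genotype cannot be told apart from this difference between libraries.

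In control mice the clustered histone genes followed different courses along germ cell development. Polyadenylated member RNA summed to 790 to 982 CPM in SG, 2479 to 2801 in preleptotene SC, 806 to 1133 in leptotene and zygotene SC, 299 to 338 in pachytene SC (P SC), 126 to 147 in diplotene SC (D SC) and 488 to 574 in round spermatids (RS). The mice did not overlap between preleptotene SC and any other of these stages. Preleptotene SC are the cells that complete the last DNA replication before meiosis. Among the 63 members with enough UMIs, the mean level was highest in preleptotene SC for 32, in SG for 13, in leptotene and zygotene SC for 6, in RS for 6, in P SC for 4 and in D SC for 2. A few genes carried much of the signal. Hist1h2bp took 13.2% and Hist1h1t 12.7% of all member UMIs in control cells, the first 5 (with Hist1h2aa, Hist1h1a and Hist1h2ba) took 50.9%, and the first 10 (with Hist1h2bc, Hist1h4d, Hist1h4c, Hist1h4a and Hist1h1c) took 70.3%. In these sums, fewer expressing cells and less RNA per cell cannot be told apart.

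**Figure D1:**
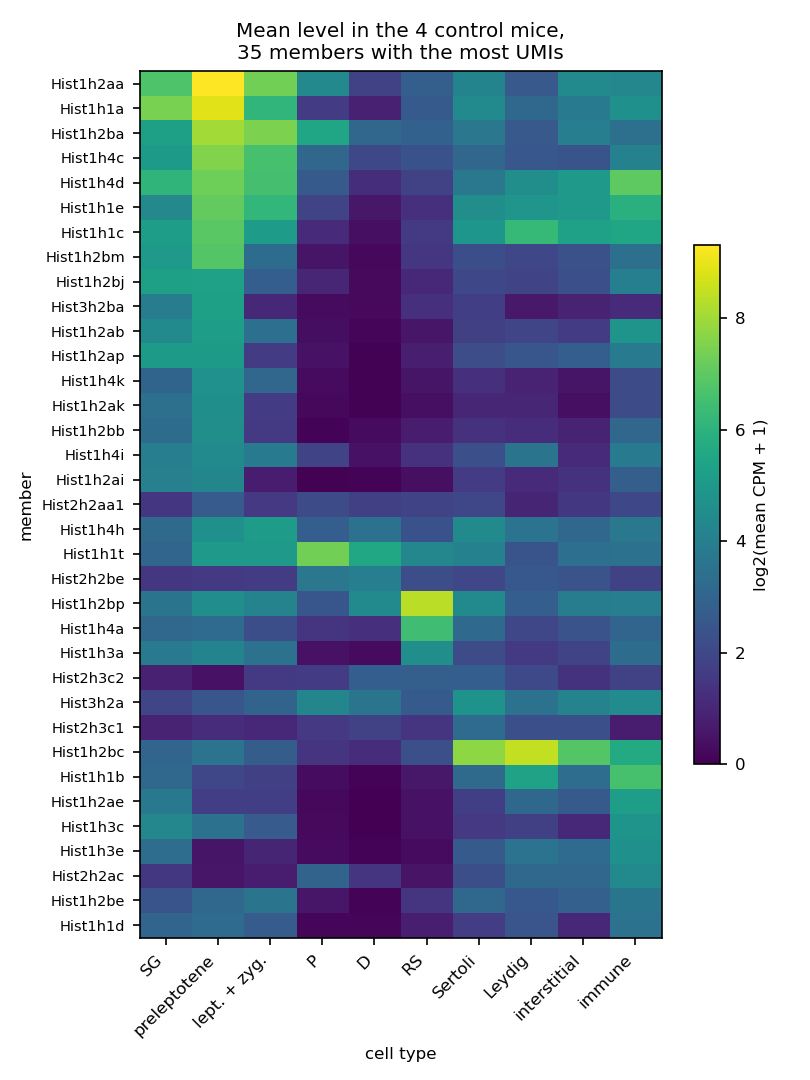
Mean level of the 35 members with the most UMIs in the cell types of the 4 control mice. Cell types are columns, members are rows and colour is log2(CPM + 1). Hist1h1t is brightest in P SC, Hist1h2bp, Hist1h4a and Hist1h3a are bright in RS, and Hist1h2bc is bright in Sertoli and Leydig cells and dark in germ cells. Of the 63 members with at least 50 UMIs, not all of them drawn, 28 are highest in preleptotene SC and 15 in immune cells.

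The members with the highest levels in preleptotene SC were Hist1h2aa and the linker histone gene Hist1h1a. Hist1h2aa stood at 634, 709, 612 and 608 CPM in preleptotene SC of the 4 control mice, against 87.3 to 138 in SG. Hist1h1a stood at 365, 514, 511 and 515 CPM in preleptotene SC, against 168 to 179 in SG. For both genes every preleptotene value lay above every SG value. Hist1h2ba, the neighbour of Hist1h2aa on chromosome 13 with 305 bases between the genes, reached 245 to 282 CPM in preleptotene SC and stayed at 139 to 208 in leptotene and zygotene SC. Among the other linker histone genes, Hist1h1e reached 124 to 148 CPM and Hist1h1c 107 to 137 CPM in preleptotene SC, whereas Hist1h1b did not exceed 3.85 CPM there, against 3.72 to 9.64 in SG.

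Early SC, taken as the mean of the log level in preleptotene and in leptotene and zygotene SC, were tested against SG in control mice, with the mouse as a block, by edgeR's quasi-likelihood test, with p-values adjusted over all genes tested. Of 56 members tested, 18 rose and 18 fell (background over all genes 19.3% higher and 39.5% lower), and the median member log2 fold change was 0.05 against -0.28 for all genes (-0.05 and -0.31 without control replicate 4). The largest increase was that of Hist1h3f, an H3 gene, which stood at 0.732 to 0.931 CPM in SG and at 15.5 to 19.3 in leptotene and zygotene SC (log2 fold change 3.399 ± 0.35 (SE), edgeR adjusted p = 9.66e-09). Hist1h2ba rose by 2.40 ± 0.20 and Hist1h1e by 2.23 ± 0.18 on the same scale. Hist1h1t already rose at this step, by 2.08 ± 0.15. Among the members that fell were the H3 genes Hist1h3e (-4.09 ± 0.50), Hist1h3b (-4.07 ± 0.49) and Hist1h3h (-3.24 ± 0.49) and the H2A genes Hist1h2af (-4.30 ± 0.81) and Hist1h2ae (-2.48 ± 0.27). H3 genes were thus found on both sides, and Hist1h3e, at 5.24 to 12.8 CPM in SG, was at 0 to 1.28 in preleptotene SC. Hist1h1a did not pass between SG and early SC (-0.04 ± 0.19), its mean being 476 CPM in preleptotene SC and 70.4 in leptotene and zygotene SC.

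From preleptotene to leptotene and zygotene SC, 30 of 56 members fell and 3 rose (background 17.3% lower and 23.4% higher), with a median of -1.10 against 0.20 for all genes. The largest decreases after that of the sparse Hist1h2af (-6.48 ± 1.71) were those of Hist3h2ba (-5.08 ± 0.41), Hist1h2ai (-4.80 ± 0.46), Hist1h2ap (-3.73 ± 0.41) and Hist1h2bm (-3.59 ± 0.33), all H2A or H2B genes. Hist3h2ba went from 31.9 to 49.1 CPM in preleptotene SC to 0.275 to 2.45 CPM. Hist1h1a fell by 2.63 ± 0.24, Hist1h2aa by 1.86 ± 0.17 and Hist1h1c by 1.71 ± 0.18 on the log2 scale, while Hist1h1e fell by only 0.77 ± 0.20 and Hist1h2ba did not pass (-0.43 ± 0.21, edgeR adjusted p = 0.114). The 3 members that rose were Hist2h3c2, Hist1h3f and Hist1h4h. The calls of Hist2h3c2 and Hist1h4h were lost with DESeq2 (adjusted p = 0.0656 and 0.113) and without control replicate 2 (edgeR adjusted p = 0.264 and 0.119) or 3 (0.0824 and 0.114), that of Hist2h3c2 at a clustering resolution of 1.2 (0.173) and that of Hist1h4h with relative log expression scaling (0.115). The call of Hist1h2af was lost without control replicate 4 (0.0511). For a list of 27 genes of DNA replication, 25 fell and 1 rose in the same comparison, so the replication genes and most histone members were lower together in these cells.

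Pachytene SC had a different set. Against early SC, 44 of 56 members fell and 7 rose (background 35.1% lower and 35.7% higher), and the median was -3.51 against -0.09 for all genes. These are changes in the share of UMIs, not in UMIs for each cell. Hist1h1t, the testis linker histone, stood at 146, 169, 166 and 159 CPM in P SC of the 4 control mice and at 5.53 to 8.54 in SG. It rose by 2.86 ± 0.12 on the log2 scale (edgeR adjusted p = 1.32e-16). The 6 other members that rose all lie outside the Hist1 cluster. These were Hist2h2ac (4.21 ± 0.36), Hist2h2ab (3.67 ± 0.63), Hist2h2be (3.11 ± 0.26), Hist3h2a (2.31 ± 0.21), Hist2h3c2 (1.63 ± 0.44) and Hist2h3c1 (1.27 ± 0.34). Of the 10 tested members of the Hist2, Hist3 and Hist4 clusters 6 rose and 2 fell (median 1.45), and of the 46 tested Hist1 members 1 rose and 42 fell (median -4.06). This split by cluster was noticed after the values were seen. The levels outside Hist1 were low, at 4.07 to 9.82 CPM for Hist2h2ac, 10.2 to 15.8 for Hist2h2be and 13.7 to 23.5 for Hist3h2a.

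The other linker histone genes fell in P SC, by 5.87 ± 0.28 for Hist1h1a, 5.82 ± 0.40 for Hist1h1d, 5.23 ± 0.21 for Hist1h1c, 4.62 ± 0.21 for Hist1h1e and 3.24 ± 0.68 for Hist1h1b on the log2 scale. In P SC of control mice Hist1h1a was left at 1.82 to 2.75 CPM, so Hist1h1t was the linker histone gene with the most UMIs there. Of the testis variants of the core histones, Hist1h2ba fell less, by 1.76 ± 0.19. Hist1h2aa fell by 3.48 ± 0.17, near the median of all tested members (-3.51).

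Round spermatids had another set, led by Hist1h2bp, an H2B gene. Pachytene SC held it at 2.81 to 7.51 CPM and D SC at 19.6 to 21.0, and it stood at 353, 278, 301 and 372 in RS of the 4 control mice, so that no RS value was near one of an earlier stage. Hist1h4a, an H4 gene, stood at 0.608 to 3.69 CPM in P SC and at 96.8, 64.8, 89.7 and 96.6 in RS. Hist1h3a, an H3 gene, stood at 0.140 to 0.636 CPM in P SC and at 14.6 to 26.6 in RS, after 11.5 to 15.98 in SG. From P SC to RS these genes rose by 6.22 ± 0.26, 5.88 ± 0.29 and 6.05 ± 0.26 on the log2 scale. The annotated transcripts of Hist1h4a and Hist1h3a end near their stem-loop. Hist1h2bp has a second annotated transcript whose splicing skips the stem-loop, and the UMIs do not tell its forms apart.

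In that comparison 15 of 56 members rose and 12 fell (background 39.3% higher and 38.2% lower). With relative log expression scaling the split was 20 higher and 10 lower (background 47.9% and 30.1%), and that scaling moved the median of all genes from 0.05 to 0.48, so the directions of members with small changes depend on it. At a clustering resolution of 1.2 it was 11 higher and 15 lower (background 41.2% and 38.4%), the 1 setting with more members lower than higher. Members that fell included most of the P SC set, Hist2h2ac (-4.12 ± 0.35), Hist2h2ab (-3.77 ± 0.57), Hist1h1t (-3.16 ± 0.14), Hist2h2be (-1.80 ± 0.23) and Hist3h2a (-1.83 ± 0.21), and the testis variants Hist1h2ba (-2.88 ± 0.25) and Hist1h2aa (-1.80 ± 0.20). Hist2h3c1 and Hist2h3c2 of that set were not called lower, since 3 of 7 tested Hist2 members were. Among germ stages Hist2h3c2 had its highest mean in RS (6.12 CPM).

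Somatic cells had their own members, given here as values with no test. Hist1h2bc, an H2B gene with no stem-loop in its annotated transcript, stood at 421, 405, 335 and 258 CPM in Leydig cells and at 176 to 243 in Sertoli cells of control mice, and at no more than 12.9 CPM in any of the 6 germ stages. It was the member with the most UMIs in both somatic types. Hist1h1b stood at 45.3 to 220 CPM in immune cells and at 30.4 to 59.3 in Leydig cells. The immune value of control replicate 4 lay far above the others. Hist1h4d, high in early SC, also reached 83.9 to 203 CPM in immune cells. Over 10 cell types, 15 of the 63 members had their highest mean in immune cells and 28 in preleptotene SC. Immune means of those 15 ran from 1.76 CPM (Hist2h2ab) to 97.8 (Hist1h1b). The immune sums held only 438911 to 728365 UMIs for each control mouse, so low means there rest on few UMIs. In immune cells all members summed to 1362 CPM in control replicate 4, against 624 to 799 in the other controls.

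The question of the genotype comparison was whether the loss of NELF-B or TDP-43 moved these genes in the cells in which the Cre had acted. In SG and early SC together, the summed member level was 1015 to 1201 CPM in the 4 control mice. It was 2759 CPM in NELF-B cKO replicate 1 and 1345 in NELF-B cKO replicate 2, and the TDP-43 cKO values were 1025, 1097 and 1124. Both NELF-B cKO mice were thus above all controls, the first by far, and the TDP-43 cKO mice lay within the control range. By stage, the preleptotene sum was 2479 to 2801 CPM in controls, 6019 and 3053 in NELF-B cKO mice and 1978, 2259 and 2238 in TDP-43 cKO mice. In SG it was 790 to 982 CPM in controls, 2246 and 855 in NELF-B cKO mice and 637 to 815 in TDP-43 cKO mice. In leptotene and zygotene SC the groups overlapped, with 806 to 1133 CPM in controls, 1118 and 1016 in NELF-B cKO mice and 807 to 984 in TDP-43 cKO mice. Replicate 1 was thus above all controls in SG and preleptotene SC. Replicate 2 was above them in preleptotene SC, where most of its cells were in a cluster apart from the control cells.

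**Figure D2:**
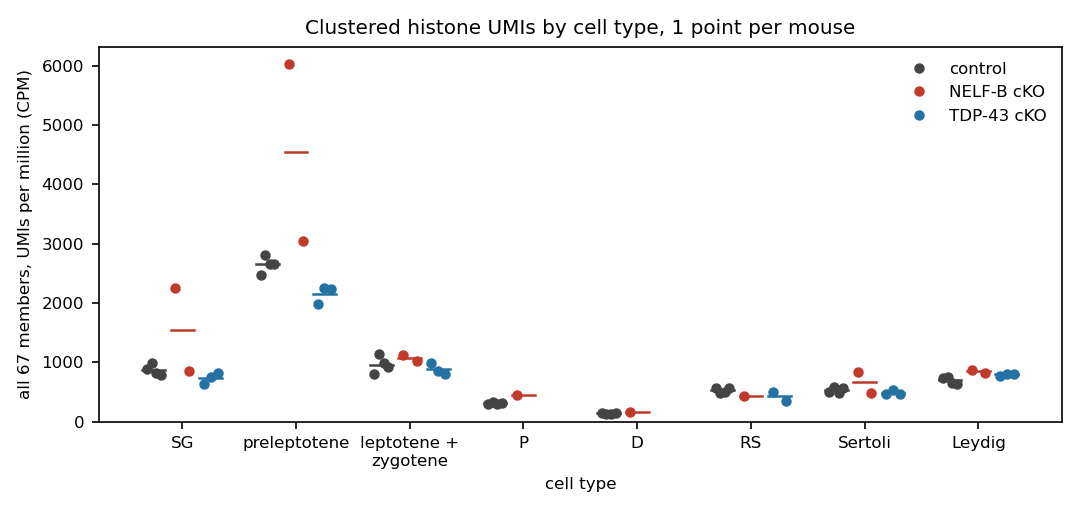
Summed level of all members in CPM for each of the 9 mice, by cell type, with 1 point for each mouse and colours for the genotypes. In preleptotene SC NELF-B cKO replicate 1 stands at 6019 CPM and replicate 2 at 3053, above the highest control at 2801, while the TDP-43 cKO mice stand below the lowest control at 2479.

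By histone type, NELF-B cKO replicate 1 was above all controls for all 5 types, and replicate 2 for 4 of them, by little for H4. In SG and early SC the H2A genes summed to 277 to 307 CPM in controls and to 915 and 398 in NELF-B cKO mice. The H1 genes summed to 276 to 327 CPM in controls and to 688 and 323 in NELF-B cKO mice, so that replicate 2 lay within the control range. The H2B genes summed to 222 to 246 against 529 and 276 CPM, the H3 genes to 45.4 to 67.7 against 110 and 77.1 CPM, and the H4 genes to 175 to 267 against 518 and 271 CPM.

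The test across all genes called none of the 60 members tested. With edgeR's quasi-likelihood test over all 9 mice, 0 members passed an adjusted p of 0.05 in either direction (background 0% higher and 0.00512% lower of 19513 genes), 42 were higher and 0 lower at an unadjusted p under 0.05 (background 7.19% and 6.44%), and DESeq2 called 19 higher and 0 lower (background 2.57% higher). The fitted log2 fold change was positive for 56 of 60 members, against 47.2% of all genes, and its median was 0.90 against -0.02 for all genes. Without NELF-B cKO replicate 1 the median was 0.41, and without replicate 2 it was 1.23. Each of these fits holds a single NELF-B cKO mouse, which is assumed to vary like the mice of the other groups. Replicate 1 was above all 4 control mice for 56 members (background 25.7%) and replicate 2 for 37 (background 29%) and below all for 5 (background 29.5%). Both were above all controls for 37 of 60 members (background 11.1%) and below for 0 (background 9.87%). With 2 NELF-B cKO mice that differ this much, the size of the difference is uncertain even where its direction was shared.

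**Figure D3:**
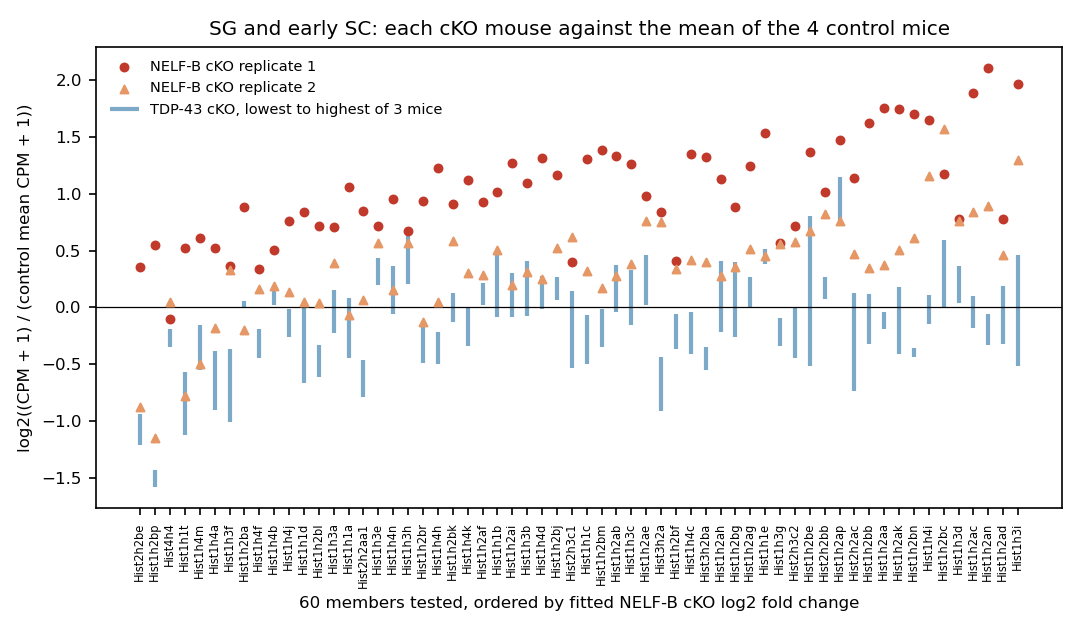
Log2 ratio of each cKO mouse to the mean of the 4 control mice in SG and early SC, with 1 column for each tested member. Columns are ordered by the fitted NELF-B cKO log2 fold change. Points show the NELF-B cKO mice, and bars run from the lowest to the highest of the TDP-43 cKO mice. The points of NELF-B cKO replicate 1 lie mostly above 0, those of replicate 2 less so, and the bars of the TDP-43 cKO mice are spread around 0.

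Of the testis variants, Hist1h2aa differed most. It stood at 166 to 182 CPM in SG and early SC of controls (176 ± 6.70 (SD, n = 4)) and at 596 and 229 CPM in the NELF-B cKO mice. The log2 fold change was 1.21 ± 0.27 (SE, edgeR adjusted p = 0.199, DESeq2 adjusted p = 0.00156), and 0.38 without replicate 1. In preleptotene SC alone Hist1h2aa reached 1723 and 790 CPM against 608 to 709 in controls, whereas in SG replicate 2 (66.4 CPM) lay below all controls (87.3 to 138) and replicate 1 (403 CPM) above. Hist1h2ba stood at 81.2 to 106 CPM in controls and at 164 and 76.8 in NELF-B cKO mice (0.43 ± 0.24, edgeR adjusted p = 0.464), with the cKO mice on opposite sides of the controls. Hist1h1t stood at 11.4 to 16.1 CPM in controls and at 20.7 and 7.82 in NELF-B cKO mice, again on opposite sides.

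Among the linker histones expressed in dividing cells, Hist1h1e stood at 36.0 to 48.5 CPM in controls and at 122 and 57.1 in NELF-B cKO mice (1.09 ± 0.23, edgeR adjusted p = 0.179). Hist1h1c stood at 37.3 to 48.4 CPM in controls and at 114 and 56.8 in NELF-B cKO mice (0.90 ± 0.23, edgeR adjusted p = 0.220). For both genes both cKO mice were above every control. Hist1h1a did not share this, with 170 to 206 CPM in controls and 404 and 185 in NELF-B cKO mice (0.59 ± 0.25, edgeR adjusted p = 0.347), and without replicate 1 its log2 fold change was -0.06.

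Of the H4 genes with the most UMIs, Hist1h4c stood at 48.1 to 79.1 CPM in controls and at 158 and 82.1 in NELF-B cKO mice, and Hist1h4d at 56.7 to 106 CPM in controls and at 207 and 98.4 in NELF-B cKO mice. Replicate 2 was thus just above the controls for Hist1h4c and among them for Hist1h4d. Hist1h2bm, an H2B gene, stood at 34.5 to 44.9 CPM in controls and at 101 and 42.7 in NELF-B cKO mice, with replicate 2 among the controls (0.91 ± 0.26, edgeR adjusted p = 0.247). A pair of members, picked after their values were seen, were high in both NELF-B cKO mice. Hist1h4i, an H4 gene, stood at 17.5, 17.6, 15.0 and 11.7 CPM in controls and at 50.65 and 35.7 in NELF-B cKO mice (1.47 ± 0.20, edgeR adjusted p = 0.095, and 1.21 without replicate 1). It was above all controls in SG (49.6 and 34.0 against 10.8 to 17.4 CPM), in preleptotene SC (65.8 and 44.8 against 15.9 to 24.6 CPM) and in leptotene and zygotene SC (29.6 and 27.1 against 10.7 to 18.5 CPM). Hist1h2bc stood at 6.34 to 8.25 CPM in controls and at 18.1 and 24.2 in NELF-B cKO mice (1.49 ± 0.24, edgeR adjusted p = 0.116, and 1.70 without replicate 1). Free RNA held Hist1h2bc at 20.2 to 29.7 CPM in controls and at 38.6 and 227 in NELF-B cKO mice. After subtraction of free RNA the log2 fold change of Hist1h2bc was 1.37 (edgeR adjusted p = 0.49).

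**Figure D4:**
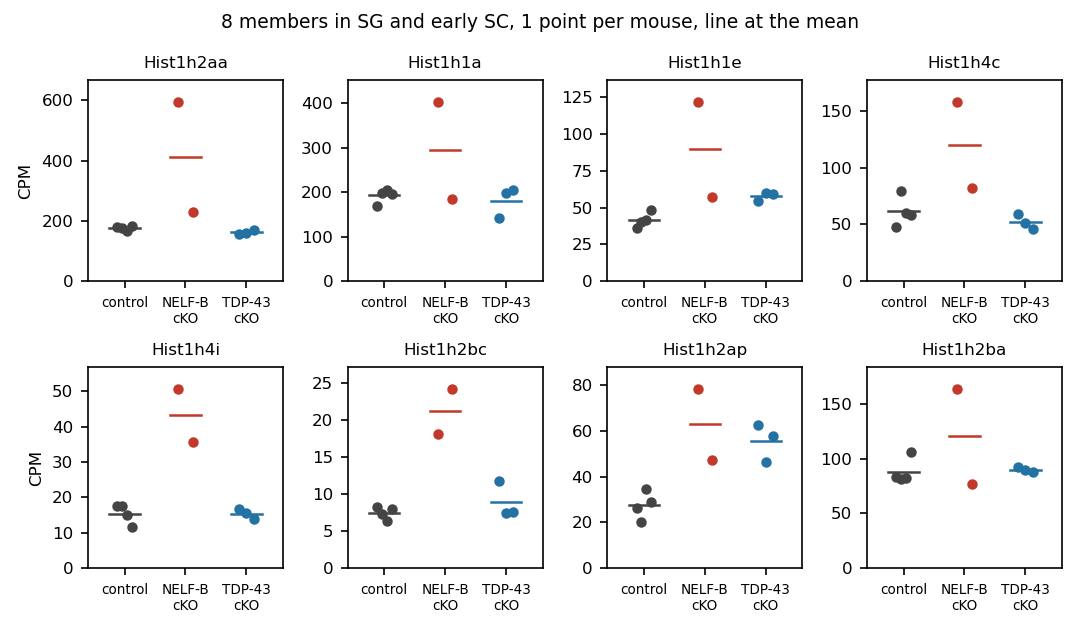
Levels in CPM of single members in SG and early SC of each of the 9 mice, with 1 point for each mouse. Hist1h4i and Hist1h2bc lie above all controls in both NELF-B cKO mice, and Hist1h2aa lies far above in replicate 1 (596 CPM) and moderately in replicate 2 (229 CPM).

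Members were also grouped by annotated 3′ end, histone type and shared sequence. In NELF-B cKO mice the median log2 fold change was 0.88 for 22 members that end near the stem-loop (21 positive), 0.93 for 20 members that run past it (18 positive) and 0.86 for 18 members with none in the annotation (17 positive). Without NELF-B cKO replicate 1 these medians were 0.38, 0.53 and 0.40 (19, 19 and 14 positive). By histone type the medians were 1.02 for H2A (15 of 15 positive), 0.93 for H2B (14 of 16), 0.89 for H3 (11 of 11), 0.73 for H1 (5 of 6) and 0.63 for H4 (11 of 12). Without replicate 1 they were 0.59 for H2A, 0.48 for H2B, 0.69 for H3, 0.19 for H1 and 0.23 for H4. The 16 tested members that share no 90-base stretch with another gene had a median of 0.89 (13 positive), against 0.90 for the 44 that share one (43 positive), so 3 of the 4 members with a negative value share no such stretch. Without replicate 1 these medians were 0.36 and 0.42, so the size of every group median but that of H3 moved by over 1.5 times with that mouse. The medians come from the same mice and are not tested against each other.

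The mixture of stages differed between genotypes, since preleptotene SC were 10.9% to 18.4% of SG and early SC in controls, 22.2% and 29.7% in NELF-B cKO mice and 29.3% to 35.7% in TDP-43 cKO mice. Of the 3 SG and early SC clusters with at least 20 cells of every mouse, 1 had both NELF-B cKO mice above all controls. In the preleptotene cluster with control cells, the member sum was 2479 to 3292 CPM in controls, 6134 and 3245 in NELF-B cKO mice and 2312 to 2785 in TDP-43 cKO mice, so NELF-B cKO replicate 2 lay within the control range there. Of the preleptotene cells of replicate 2, 79 were in that cluster and 160 in another preleptotene cluster in which no control mouse had 20 cells, where its sum was 2961 CPM. That cluster also held 106, 176 and 168 cells of the TDP-43 cKO mice, with sums of 1705 to 1957 CPM. In the leptotene and zygotene cluster both NELF-B cKO mice lay within the control range, as given above. In the SG cluster that holds all mice it was 318 to 611 CPM in controls, 977 and 668 in NELF-B cKO mice and 447 to 597 in TDP-43 cKO mice. The part of the stage mixture in the difference was not tested. In preleptotene SC both NELF-B cKO mice were above all controls for 28 of 60 members (background 7.61%), in SG for 22 (8.71%) and in leptotene and zygotene SC for 14 (13.3%). These single-stage values were added after the data were seen.

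Single preleptotene cells showed the same order, but they are the cells of the sums above, so this adds no separate support. Cells were thinned to 2000 UMIs each and counted where they held at least 5 UMIs of the 64 members other than the testis variants. The share of such cells was 27.2%, 35.5%, 24.4% and 25.5% in the controls, 72.8% and 38.0% for NELF-B cKO and 19.02%, 23.5% and 23.8% for TDP-43 cKO. P SC of controls had 0% such cells, but after thinning they held a mean of only 0.165 to 0.276 of these UMIs. A share this low was thus set by their summed level and is no check. Without thinning the share was 73.9% to 89.4% in controls, 94.3% and 88.3% for NELF-B cKO and 72.6% to 82.4% for TDP-43 cKO in preleptotene SC, and 49.6% to 74.6% in the far deeper P SC of controls (median 53996 to 77482.5 UMIs against 6838 to 13029 in preleptotene SC). At most 7 cells of a mouse were too shallow to be thinned.

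Genes that make or handle histones were examined as 5 lists. The lists share genes, such as Slbp (DNA replication and 3′ end processing) and Cstf2 (3′ end processing and cleavage and polyadenylation), so their sums are not independent. None of their tested genes was called in NELF-B cKO germ cells (background 0% higher and 0.00512% lower), in a fit that called almost no gene. The median log2 fold change was 0.12 for 27 DNA replication genes, 0.12 for genes of histone 3′ end processing, 0.11 for genes of general cleavage and polyadenylation, 0.05 for histone chaperones and 0.23 for replacement histones, against -0.02 for all genes. Without NELF-B cKO replicate 1 they were 0.15, 0.10, 0.16, 0.10 and 0.41 in the same order, and without replicate 2 they were 0.09, 0.02, 0.06, -0.04 and 0.30. In SG and early SC the replication genes summed to 2271 to 2291 CPM in controls, 2554 and 2516 in NELF-B cKO mice and 2504 to 2581 in TDP-43 cKO mice, so both cKO genotypes were above all controls. In preleptotene SC alone they summed to 2709 to 2759 CPM in controls and to 2724 and 3094 in NELF-B cKO mice, where replicate 1 lay within the control range. The sums of the other 4 lists were also above all controls in both NELF-B cKO mice, such as 2302 and 2351 against 1992 to 2081 CPM for 3′ end processing and 7687 and 6874 against 4500 to 5385 CPM for replacement histones. Slbp, which encodes the protein that binds the stem-loop, stood at 269, 268, 251 and 250.4 CPM in controls and at 356 and 374 in NELF-B cKO mice (0.48 ± 0.08, edgeR adjusted p = 0.102). Both cKO mice were above every control, but the difference did not pass. Most replacement histones are made from ordinary polyadenylated mRNAs. Of these, the linker histone gene H1f0 stood at 51.1 to 66.3 CPM in controls and at 121 and 90.8 in NELF-B cKO mice (0.89 ± 0.14, edgeR adjusted p = 0.0949). H3f3b, one of the genes for H3.3, stood at 2117 to 2577 CPM in controls and at 4415 and 3489 in NELF-B cKO mice (0.78, edgeR adjusted p = 0.126). These replacement histone genes were thus above the controls in both NELF-B cKO mice too, although they are not clustered members, and they were named after their values were seen. Of the 14 tested genes of that list, 9 had a positive log2 fold change.

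TDP-43 cKO germ cells did not show the pattern of NELF-B cKO replicate 1. The comparisons share the 4 control mice. With edgeR 0 members were called in either direction (background 0% higher and 0.0102% lower), 2 were higher and 6 lower at an unadjusted p under 0.05 (background 8.88% and 14.8%), and DESeq2 called 1 higher and 2 lower (3.17% and 8.05%). The median log2 fold change was -0.04 against 0.01 for all genes, with 29 members positive and 31 negative. All 3 mice were above all controls for 2 members (background 8.75%) and below for 7 (background 18.8%). In preleptotene SC they were below for 16, or 26.7% (background 14.8%).

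The member that DESeq2 called higher was Hist1h2ap, an H2A gene with copies nearby, at 62.3, 46.5 and 57.7 CPM in TDP-43 cKO mice against 20.3 to 34.5 in controls (1.08 ± 0.22, edgeR adjusted p = 0.0926, DESeq2 adjusted p = 0.000586). Hist1h1e stood at 54.6, 59.7 and 59.4 CPM against 36.0 to 48.5 in controls (0.54 ± 0.21, edgeR adjusted p = 0.161). The lower members included some of later stages. Hist1h2bp, the RS member, stood at 4.27, 4.03 and 3.76 CPM against 7.54 to 24.8 in controls (-1.66 ± 0.53, edgeR adjusted p = 0.109, DESeq2 adjusted p = 0.0156). Subtraction of free RNA left 0, 13, 0 and 0 of its UMIs in controls and 53, 22 and 38 after TDP-43 loss, so the fitted value after it (3.61) rests on controls near 0 and gives no direction. Hist2h2be, of the P SC set, stood at 0.237, 0.495 and 0.314 CPM against 0.972 to 2.57 (-2.32 ± 0.65, edgeR adjusted p = 0.0935, DESeq2 adjusted p = 0.0225), and Hist1h1t at 5.93, 7.86 and 9.22 CPM against 11.4 to 16.1 (-0.82 ± 0.31, edgeR adjusted p = 0.153). Free RNA moved with these values, at 2.11, 22.4 and 15.4 CPM of Hist1h2bp in TDP-43 cKO mice against 54.4 to 195 in controls, and at 3.17, 29.1 and 21.8 CPM of Hist1h1t against 32.1 to 45.2. RS numbered 383 to 889 cells in controls and 2, 35 and 63 in TDP-43 cKO mice (4, 58 and 87 before cells with a Tardbp UMI were removed). Apart from that subtraction, the part of free RNA in these values was not tested.

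Compared directly, the fitted log2 fold change of TDP-43 cKO against NELF-B cKO mice was negative for all 60 tested members, with a median of -0.91 against -0.02 for all genes. With edgeR 0 were called (background 0.0769% higher and 0.0512% lower), 0 were higher and 40 lower at an unadjusted p under 0.05 (background 8.42% and 9.73%), and DESeq2 called 16 lower (background 2.87%). Hist1h4i came nearest (-1.41 ± 0.22, edgeR adjusted p = 0.0524). Both NELF-B cKO mice were above all 3 TDP-43 cKO mice for 44 of 60 members (background 19.9%), and in preleptotene SC for 49 (background 13.1%). Without NELF-B cKO replicate 1 the median was -0.40, so its size rests largely on that mouse. In leptotene and zygotene SC alone it was -0.60 and in preleptotene SC alone -1.43.

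Sertoli cells, in which the Cre is not meant to act, gave a smaller difference that rested on 1 mouse. They too carry the null allele, and in NELF-B cKO mice their Nelfb was lower, as given above. They are thus no comparison with unchanged Nelfb. The member sum was 481 to 583 CPM in controls, 839 and 488 in NELF-B cKO mice and 463 to 530 in TDP-43 cKO mice. Of 37 members tested, edgeR and DESeq2 called 0 in NELF-B cKO mice (edgeR background 0% in both directions, DESeq2 background 0.441% higher and 0.079% lower, with 3 higher and 1 lower at an unadjusted p under 0.05 against backgrounds of 6.66% and 3.31%). Replicate 1 was above all controls for 23 members (background 22.2%) and replicate 2 for 4 (background 25%). In replicate 1 the germ cell member Hist1h2aa stood at 131 CPM in Sertoli cells, against 5.60 to 29.4 in controls, beside the germ cell gene Stra8 at 81.4 CPM against 13.5 to 24.7, and the part of germ cell RNA in that value was not tested. Hist1h2bc, the main somatic member, stood at 165 and 243 CPM in NELF-B cKO mice against 176 to 243 in controls. In TDP-43 cKO mice 0 members rose (background 3.84%) and 2 fell (background 8.25%), the RS members Hist1h2bp (1.71, 3.16 and 1.98 CPM against 6.92 to 53.9, -3.08 ± 0.80, edgeR adjusted p = 0.0424) and Hist1h4a (2.45, 2.71 and 3.03 CPM against 5.19 to 13.5, -1.47 ± 0.41, edgeR adjusted p = 0.0471). Both calls were lost with the replicate number as a block (edgeR adjusted p = 0.165 and 0.184) and when any 1 of the control or TDP-43 cKO mice was left out (0 members called in each case, and 3 without either NELF-B cKO mouse). In the same fits 0% of all genes were lower where 0 members were, and 13.5% and 13.6% without NELF-B cKO replicates 1 and 2, so the members followed all genes. Sertoli cells had a median of 2072.5 to 2708 UMIs in controls and of 23209, 6644.5 and 18153 in TDP-43 cKO mice. Free RNA held more Hist1h2bp in controls than in TDP-43 cKO mice, as given above. The part of depth and of free RNA in the calls of Hist1h2bp and Hist1h4a was not tested. The difference between the germ cell and the Sertoli cell effect was tested for 58 members. Of these edgeR called 0 for NELF-B cKO mice (background 0% higher and 0.005% lower, with 6 higher and 0 lower at an unadjusted p under 0.05 against backgrounds of 2.3% and 7.66%, and a median of 0.49 against -0.09 for all genes) and 0 for TDP-43 cKO mice (background 1.3% higher and 4.75% lower, with 3 higher and 3 lower at an unadjusted p under 0.05 against backgrounds of 5.77% and 20.6%).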

How the data were processed

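Single cells of 9 testes were sequenced by 10x 3′ RNA-seq. Per the labels and methods, the authors demultiplexed with Cell Ranger 6.1.1, mapped reads to mm10 with Cell Ranger 7.0.0 and used Seurat 4.2.0 and DESeq2 1.36. The deposited files hold raw UMI counts for each barcode, and their headers name another Cell Ranger version. Barcodes were kept if they held more than 1000 genes and less than 10% of UMIs from mitochondrial genes. Genes found in more than 15 of them were used, and the cells were clustered with scanpy 1.11.5 (3000 variable genes, 40 components, 20 neighbours, Leiden resolution 0.8). Members and the genes of the 5 lists were left out of the clustering, and no doublet caller was run. Clusters were named from at least 3 markers at 2-fold, unless their median was under 2000 UMIs, 1 mouse held over 80% or the leading genes held more markers of another class. As in the study, germ cells of cKO mice with a UMI of the target gene were removed. This took 441 of 778, 493 of 995 and 578 of 1085 SG from TDP-43 cKO mice. From NELF-B cKO mice it took 24 of 1098 and 39 of 471 SG. Counts were summed for each mouse and cell type (at least 20 cells in a group that was tested), filtered with filterByExpr, scaled by TMM and tested with edgeR 4.0.16 (R 4.3.3), with Benjamini-Hochberg adjustment over all genes tested and a call at 0.05. Stages were compared in control mice with the mouse as a block, and genotypes over all 9 mice with no block. DESeq2 1.42.0 and the settings given in the closing section were alternatives. The fit was tested on simulated counts with a fixed dispersion of 0.05, in which only genes with a mean over 50 counts were changed. There 100% of genes changed by a log2 of 2 or 3 were found. Smaller changes and the spread seen between the NELF-B cKO mice were not simulated, so this does not give the power of the genotype tests. Free RNA was taken from barcodes with 1 to 100 UMIs. Each mouse is 1 replicate. UMIs count molecules, and depth limits members under 50 UMIs to wide errors.

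Named members were the testis variants, the linker histones Hist1h1a to Hist1h1e, the 10 members with most UMIs in control cells and, in each comparison, up to 5 called in each direction with the largest change. From the lists, called genes and Slbp were named. The members and the lists were chosen with earlier results of these data known.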

Additional observations from a re-analysis of the deposited data

Results flagged for a closer look

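Of 24 sets of 4 control values tested with Dixon's criterion (which chance passes about 1 time in 20), 2 held a mouse far from the others. In SG and early SC of control mice, the lowest Hist1h1c value, that of control replicate 4 (37.3 CPM against 47.1 to 48.4), lay at a gap of 0.8805 of the range. The highest Hist1h2ba value, also that of control replicate 4 (106 CPM against 81.2 to 82.9), lay at a gap of 0.9302 of the range.

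Barcodes with 1 to 100 UMIs, which hold free RNA and whose member sum enters no comparison above, held more member RNA in every cKO mouse than in any control. The summed level was 636.2 and 664.6 CPM in NELF-B cKO replicates 1 and 2 and 670.6, 628.7 and 599.8 CPM in TDP-43 cKO replicates 1, 2 and 3, against 374 to 488 in controls. In NELF-B cKO replicate 2 and TDP-43 cKO replicate 1 a large part was the somatic member Hist1h2bc (227 and 181 CPM, against 20.2 to 29.7 in controls).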

How the results depend on the processing

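The NELF-B cKO calls depended on the test and on which NELF-B cKO mouse was left out. Leaving out 1 mouse at a time gave 0 to 21 members higher in NELF-B cKO germ cells (0 without NELF-B cKO replicate 1, 21 without replicate 2), with a median of 0.414 to 1.23. The number higher was 19 with DESeq2 (2.57% of the genes given an adjusted p), 4 with target-positive cells removed from controls too (0.916% of all genes tested), 1 after subtraction of free RNA (0.213%), 1 in preleptotene SC alone (0.172%) and 1 in leptotene and zygotene SC alone (0.473%), where the median was 0.1985. For TDP-43 cKO against control, DESeq2 called 1 higher and 2 lower, a fit of only the 2 genotypes 2 and 3 (3.87% and 9.41% of all genes), and leptotene and zygotene SC alone 1 lower (4.69%). The median was 0.0310 in SG alone, -0.5135 in preleptotene SC alone, -0.1996 in leptotene and zygotene SC alone, -0.1527 with cells removed from controls too, -0.0820 with no cell removed and 0.0469 with only the 2 genotypes. Leave-one-out gave medians of -0.0585 to 0.0893, with 0 to 2 higher and 0 to 3 lower (2 and 3 without NELF-B cKO replicate 1 or 2, where 3.39% and 3.5% of all genes were higher and 8.68% and 8.61% lower). For TDP-43 cKO against NELF-B cKO, members lower numbered 16 with DESeq2 (2.87% of the genes given an adjusted p), 4 after free RNA subtraction (0.415% of all genes tested), 6 in preleptotene SC alone (0.165%) and 1 with no filter (0.0614%), and 0 to 29 on leave-one-out, with medians of -1.141 to -0.397 (29 without NELF-B cKO replicate 2, 7.73% of all genes). Its median was -0.9804 with DESeq2, -0.9751 in SG alone, -0.9493 with cells removed from controls too, -0.9676 after free RNA subtraction, -0.6009 in leptotene and zygotene SC alone, -0.9687 with no filter and -1.4333 in preleptotene SC alone. In Sertoli cells, leave-one-out gave 0 to 3 members lower in TDP-43 cKO mice (median -0.2487 to 0.0489), with 0% of all genes lower where 0 members were and 13.5% to 13.6% where 3 were. For the difference between cell types it gave 0 to 1 higher in NELF-B cKO mice (1 without replicate 2, 0.104% of all genes), and 0 to 1 higher and 0 to 2 lower in TDP-43 cKO mice (1 and 2 without NELF-B cKO replicate 1, 2.52% and 9.69% of all genes, and 1 higher without replicate 2, 4.98%), where 1 was higher with no cell removed (1.85%). Stage-alone settings were added after the data were seen.

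Among the stage comparisons, the median for early SC against SG was 0.2469 with relative log expression scaling, 0.3433 at a clustering resolution of 1.2 and -0.2204 with no filter, and -0.0510 to 0.1140 on leave-one-out, below 0 without control replicate 4. For leptotene and zygotene against preleptotene SC it was -0.8278 with no filter and -1.322 to -1.097 on leave-one-out, and the number higher was 1 with DESeq2 (12.6% of all genes fitted), 5 at resolution 1.2 (23%) and 1 to 4 on leave-one-out (19.2% to 21.7%). For P SC against early SC it was -3.6756 with relative log expression scaling, -2.2604 at resolution 1.2, -3.1295 with no filter and -3.767 to -3.349 on leave-one-out. For RS against P SC it was 0.9825 with DESeq2, 0.8252 with relative log expression scaling, -0.1895 at resolution 1.2 and -0.0813 to 0.6005 on leave-one-out.

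Some single members changed direction in NELF-B cKO germ cells. Hist1h1t, near 0 in the main fit, was at 0.0053 with relative log expression scaling, 0.0051 with DESeq2, 0.0195 with only the 2 genotypes, 0.0672 with the replicate block and 0.2903 after free RNA subtraction, and at -0.851 to 0.5104 on leave-one-out. Hist1h2ba was at -0.0710 with cells removed from controls too and at -0.1952 to 0.8537 on leave-one-out. Hist1h1a ranged from -0.0595 to 1.029, Hist1h4a from -0.1982 to 0.5541 and Hist1h2bp from -1.285 to 0.5505. After free RNA subtraction Hist1h2bp was at 4.8563 for NELF-B cKO and 3.6070 for TDP-43 cKO mice. The subtraction left 0, 13, 0 and 0 of its UMIs in the controls, so these values give no direction.

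Whether replicate numbers pair the mice is unknown. Deviations of mice with the same number correlated at 0.37 and 0.30 between control and NELF-B cKO, -0.16, -0.12 and -0.003 between control and TDP-43 cKO, and -0.39 and -0.29 between NELF-B cKO and TDP-43 cKO mice. Deviations of the 2 NELF-B cKO mice from their mean mirror each other, so the values with that group cannot show or exclude pairing. With the replicate block, 0 members were called in NELF-B cKO germ cells (median 0.7975), and 0 were lower in TDP-43 cKO Sertoli cells. Beside the values given above, 32 values of single members kept their direction and newly passed the threshold under an alternative (12 without NELF-B cKO replicate 2, 9 with DESeq2), and 26 no longer passed it, those of Hist1h2bp and Hist1h4a in TDP-43 cKO Sertoli cells and of Hist1h2af, Hist1h4h and Hist2h3c2 in leptotene and zygotene against preleptotene SC. The direction and the side of the threshold were kept for 685 values of single members and for 352 counts and medians.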
